A study of Mus musculus with 6 samples.

Results

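Monocytes of mice carrying BRAF V600E were set against wild-type monocytes, 1 sequenced library on each side and 2 of the 6 libraries of the series. Both were chosen by their labels, which give the cell type as monocytes and the genotype as WT or BRAFV600E mutant. The other 4 libraries are intravascular macrophages (labelled IVM) and microglia of the same genotypes, and serve here only to show where a monocyte gene stood elsewhere. RNA was reverse transcribed at full length with the SMART-Seq HT kit, made for very small inputs, and made into libraries with Nextera XT. The labels give no treatment, no age or sex of the mice, no promoter or Cre that drives the mutant BRAF, and no gate for the sort. They also do not say how many mice or cells a library pools, so the cells that carry the mutation within the mutant library are not known. With 1 library a side there are no replicates, no test was run, and every fold below compares these libraries only.

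Monocytes are short-lived phagocytes of the blood that form in the bone marrow from granulocyte and monocyte precursors. Classical monocytes, with high Ly6C and CCR2, enter inflamed tissue and can become macrophages, and non-classical or patrolling monocytes, with high CX3CR1, crawl along the vessel wall. BRAF is a kinase that passes signals from RAS at the membrane to MEK and ERK. The V600E substitution keeps the kinase active without RAS, and ERK then switches on transcription factors, growth genes and its own inhibitors. In Langerhans cell histiocytosis and related diseases, monocyte and macrophage precursors carry this mutation. The series asks, by its title, about senescent myeloid cells in the circulation.

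The wild-type library held 25787476 counts and the deeper mutant library 62110213. Levels are CPM, counts scaled to library size and TMM factors over the 6 libraries, and in each pair below the wild type comes first and the mutant second. A gene was compared when it reached 10 CPM in the higher library, which left 8377 genes. Of these, 16.7% were at least 2-fold higher and 6.33% at least 2-fold lower in the mutant, and 6.37% and 0.609% were at least 4-fold higher and lower. The middle gene had a log2 ratio of 0.05. The scaling decides where 0 lies: with library size alone the median shift of a log2 ratio was -0.59, and on the deposited TPM -0.86 (5th to 95th percentile of genes -0.87 to -0.80), with shifts outside that range for genes with few counts in a library. No gene at least 2-fold higher or lower changed sign on TPM. A near-constant shift smaller than a log2 ratio of 1 largely fixes this in advance, so it supports nothing further. The share of all compared genes within 2-fold was 77%, and the share of a list is read beside it. A gene that reaches 10 CPM only in the mutant library is bound to be higher there, so a count of higher members describes a list and supports nothing further. For the lists most exposed to this, the number of members at 10 CPM in wild type is given. That number covers all measured members of the list, whether higher or not. Below, a fold is followed by its exact 95% interval, which covers the counting error of these reads only.

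**Figure D1:**
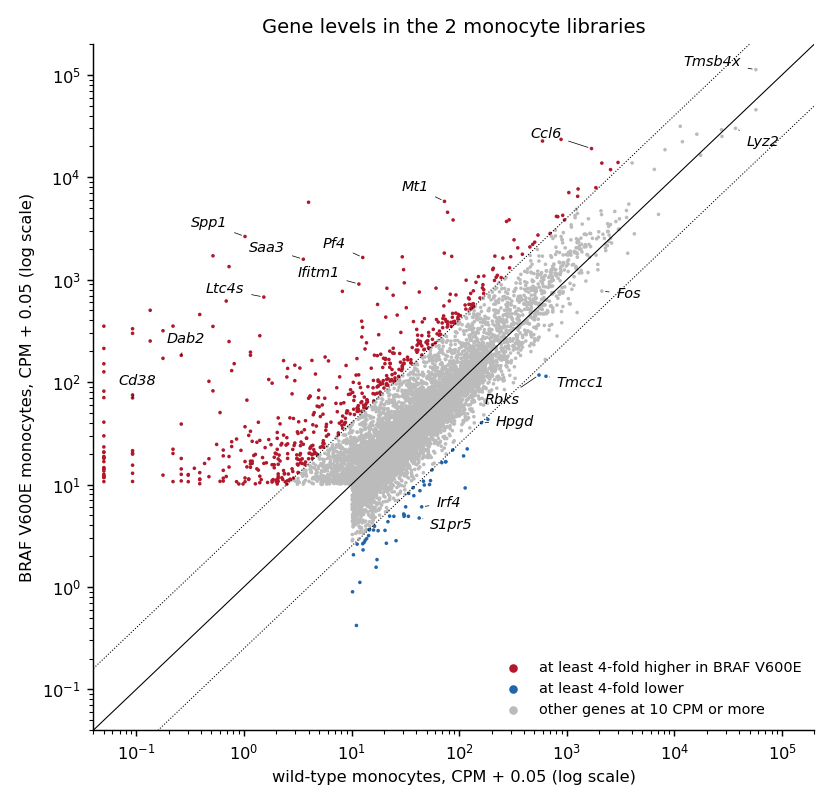
Each point is 1 of the 8377 genes at 10 CPM or more, by its CPM in wild-type (horizontal) and mutant (vertical) monocytes, both on log axes with 0.05 added; dotted lines mark 4-fold. Red points, at least 4-fold higher in the mutant, spread far to the left at low wild-type levels. Blue points, at least 4-fold lower, are fewer, and AA474408 among them lies far from the line, at 11.1 and 0.37 CPM.

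Short genes were higher in the mutant library as a class. In the shortest decile of genes, up to 1217 nucleotides, 44.6% were at least 2-fold higher and 2.27% at least 2-fold lower, with a median log2 ratio of 0.85. In the longest decile, from 9300 nucleotides, 4.77% were higher and 8.59% lower, with a median of -0.29. A smooth correction for gene length and level was therefore computed as well. It kept 1093 of the 1395 genes at 2-fold or more and turned the sign of none of them. A group made of short genes is read against the 44.6% of the shortest decile rather than the 16.7% of all genes.

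Reads of other blood cells were also more frequent in the mutant library. Neutrophil markers summed to 2679.8 and 63129 CPM, with 19 of 21 measured members at least 2-fold higher and 11 at 10 CPM in wild type. Most of the mutant sum came from S100a9 and S100a8, at 23417 and 22567 CPM there. The range was wide: the stefin Stfa2l1 had 0 wild-type counts and 213 CPM in the mutant, whereas Csf3r, the receptor of the neutrophil growth factor G-CSF, was 1.88-fold lower (1.8 to 1.97) and the neutrophil surface protein Cd177 1.62-fold lower (1.57 to 1.67). Ly6g, the surface antigen by which mouse neutrophils are sorted, had 0.169 CPM in wild type and 2.2 CPM in the mutant. Granule genes of granulocyte precursors summed to 43.3 and 293 CPM in the same order, with 1 member at 10 CPM in wild type. Eosinophil markers summed to 5.51 and 376 CPM, with no member at 10 CPM in wild type and Prg3, Ccr3, Il5ra, Ear6 and Alox15 at 0 wild-type counts. Erythroid markers, nearly all of them globin reads, summed to 219 and 10513 CPM (8 of 8 higher, 4 at 10 CPM in wild type), and Car1 and Rhag were at 0 in both libraries. Platelet markers summed to 93.5 and 2550.1 CPM (6 of 7 higher, 3 at 10 CPM in wild type), mostly Pf4 and Thbs1, which macrophages also make. The platelet glycoprotein genes Gp1ba and Gp6 and the platelet tubulin Tubb1 stayed at 2.04, 1.32 and 2.86 CPM in the mutant.

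Lymphocyte and tissue markers had smaller sums than neutrophil markers in both libraries, but several lymphocyte markers were higher in the mutant. T cell markers summed to 15.9 and 67.2 CPM (3 of 3 measured members at least 2-fold higher, 0 at 10 CPM in wild type). NK cell markers summed to 282 and 651 CPM (4 of 7 higher, 4 at 10 CPM in wild type). B and plasma cell markers summed to 328 and 450.5 CPM (5 of 8 higher, 4 at 10 CPM in wild type). Basophil and mast cell markers summed to 2.12 and 16.3 CPM, with no member at 10 CPM. Dendritic cell markers summed to 595 and 621 CPM, markers of endothelium, stroma and astrocytes to 91.5 and 54.5 CPM, and microglia markers, several of which monocytes share, to 1682 and 1476 CPM. Classical monocyte markers were present in both libraries: all 17 measured genes reached 10 CPM on each side and their sum was 50212 and 52567 CPM. In bulk RNA, fewer cells of a type and less RNA per cell cannot be told apart. The part of these other cells in the results below was not tested. Leaving out every gene on the blood cell lists and scaling again gave 491 genes at least 4-fold higher in place of 534. This takes out the listed genes only, and 52 of the 534 are on those lists. Other transcripts of those cells stay in, so 491 is not a count without their reads.

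**Figure D2:**
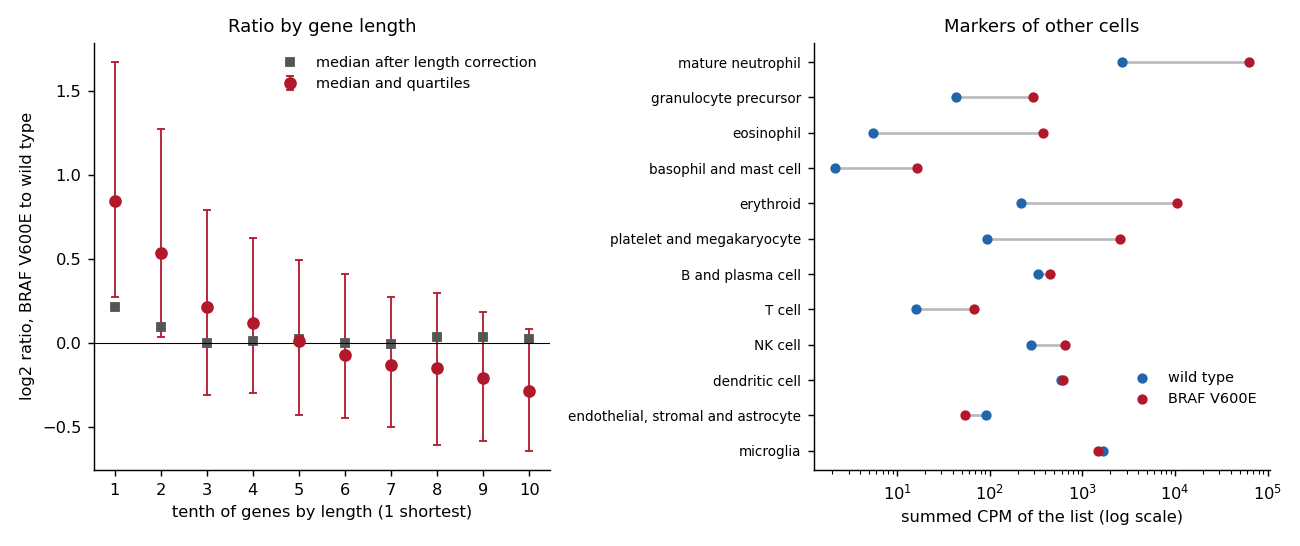
Left, log2 ratio of mutant to wild-type monocytes by decile of gene length (red, median with quartiles; grey, median after the length correction), which runs from 0.85 to -0.29 before correction. Right, summed CPM of the marker list of each other cell type in wild-type (blue) and mutant (red) monocytes on a log axis, with the widest gaps for neutrophil, eosinophil, erythroid and platelet markers.

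The genes of the RAS to ERK cascade itself differed little. Of 20 measured kinases, GTPases, adaptors and scaffolds, none was at least 2-fold higher and 2 were at least 2-fold lower, around a median log2 ratio of -0.03 (0.04 after the length correction). Braf was 2.03-fold lower, at 27 and 13.3 CPM, with a log2 ratio of -0.68 after the length correction; counts do not show which allele they come from. The MEK genes Map2k1 and Map2k2 had log2 ratios of 0.15 and 0.52, both below 0 on TPM (-0.72 and -0.35), and the ERK1 gene Mapk3 had -0.08.

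Several genes that ERK switches on were higher, and its own inhibitors were split. Among inhibitors, 4 of 7 measured genes were at least 2-fold higher, with a median log2 ratio of 1.14 (0.27 on TPM). Spry2, a Sprouty protein that blocks signalling upstream of RAF, had 6.44 and 22.3 CPM, 3.47-fold higher (2.92 to 4.15). Dusp2 and Dusp5, phosphatases that act on ERK in the nucleus, were 3.34-fold and 2.3-fold higher, and Spred1, which brings neurofibromin to RAS, 2.21-fold. Dusp6, the cytoplasmic ERK phosphatase often taken as a readout of the pathway, went the other way with 279 and 140.4 CPM, 1.99-fold lower (1.92 to 2.06). Dusp1 and Dusp7 lay within 2-fold, and Dusp4, Spry1 and Spry4 stayed below 10 CPM. Of the ERK-induced genes, 9 of 12 were at least 2-fold higher (median log2 ratio 2.81, and 1.90 on TPM over the same members). Only 4 of the 12, higher or not, reached 10 CPM in wild type. Phlda1, a pleckstrin-domain protein of growth factor responses, had 2.5 and 24.9 CPM, 9.97-fold higher (7.66 to 13.2). Etv1, an ETS factor, was 5.26-fold higher (3.89 to 7.25), and Myc 7.18-fold higher (5.49 to 9.53). Egr1, the early growth response factor, had 7.33 and 51.3 CPM, 7.0-fold higher (5.99 to 8.23), and Ccnd1, cyclin D1, 2.16 and 24.3 CPM, 11.3-fold higher (8.48 to 15.2). The immediate early gene Ier2 had a log2 ratio of -0.45, and Plaur, the urokinase receptor, of 0.57, which was -0.30 on TPM. All the 2-fold higher members of both lists kept a log2 ratio above 1 after the length correction.

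AP-1 genes did not follow the ERK-induced group. Fos, Fosb and Atf3 were the members at least 2-fold lower and Batf the only one higher among 12 measured. Fos, a partner of JUN in AP-1 (GENCODE ENSMUSG00000021250.13, chromosome 12, 85473890 to 85477273, plus strand), had 2117 and 774 CPM, 2.74-fold lower (2.7 to 2.78). Batf, an AP-1 factor of lymphoid and myeloid differentiation, had 18.7 and 75.6 CPM, 4.05-fold higher (3.66 to 4.49). Jun and Junb lay near 0, with log2 ratios of -0.26 and 0.05. In the other cell types Fos had 1012 and 1201 CPM in intravascular macrophages and 566 and 12476 CPM in microglia, so the order seen in monocytes was not that of microglia. Of the NF-kB genes 16 of 20 lay within 2-fold, close to the 77% of all compared genes. Nfkbia, which encodes the inhibitor IkB alpha and is itself an NF-kB target (ENSMUSG00000021025.8, chromosome 12, 55489410 to 55492647, minus strand), had 215 and 1698 CPM, 7.91-fold higher (7.69 to 8.15), and Tnip3, a binder of the inhibitor A20, 3.05 and 19.4 CPM, 6.37-fold higher (4.99 to 8.23). Tnfaip2, a TNF-induced gene, was 2.61-fold lower (2.56 to 2.66) and the subunit Rel 2.16-fold lower (1.98 to 2.35), with a log2 ratio of -0.89 after the length correction. Rela had a log2 ratio of -0.13 and Nfkb1 of -0.83.

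Transcription factors of the lineage differed in both directions. Of 27 measured, 9 were at least 2-fold higher and 5 lower. Id3 led the higher side, and the related inhibitors of DNA binding Id1 and Id2 were higher as well. Id3 (ENSMUSG00000007872.3, chromosome 4, 136143497 to 136145755, plus strand) had 2.75 and 76.7 CPM, 27.9-fold higher (21.8 to 36.2), Id1 had 3.09 and 32.6 CPM, 10.6-fold higher (8.33 to 13.6), and Id2 128 and 523 CPM, 4.1-fold higher (3.94 to 4.26). Factors of macrophages stood beside them. Maf, a basic leucine zipper factor of macrophages (ENSMUSG00000055435.6, chromosome 8, 115682942 to 115707794, minus strand), had 109.9 and 315 CPM, 2.86-fold higher (2.74 to 2.99). Nr1h3, the oxysterol receptor LXR alpha, had 1.1 and 14.7 CPM, 13.3-fold higher (9.0 to 20.6). Tfec and Mitf, of the lysosomal MiT family, were 5.27-fold and 2.23-fold higher, and Bhlhe40 3.3-fold. On the lower side were Cebpa and Irf8, factors of granulocyte and monocyte specification. Cebpa had 126 and 54.6 CPM, 2.31-fold lower (2.18 to 2.44), and Irf8 537 and 257 CPM, 2.09-fold lower (2.03 to 2.14). Rara, the retinoic acid receptor, was 2.25-fold lower (2.14 to 2.37) and Klf6 2.04-fold lower (1.98 to 2.11). Spi1, the master factor PU.1, had 377 and 363 CPM, 1.04-fold lower (1.01 to 1.07), Klf2 had a log2 ratio of 0.04 and Runx3 of 0.01.

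Markers of classical monocytes lay mostly within 2-fold and a few were higher. Of 17, 6 were at least 2-fold higher, Gpr141 was 2.61-fold lower (2.48 to 2.74), and the median log2 ratio of 0.57 was -0.30 on TPM. Cd14, the lipopolysaccharide co-receptor, had 93.3 and 709.6 CPM, 7.6-fold higher (7.28 to 7.95), and Vcan, the matrix proteoglycan versican, 19.4 and 139 CPM, 7.15-fold higher (6.49 to 7.88). Chil3, the secreted chitinase-like protein Ym1, had 782 and 3041 CPM, 3.89-fold higher (3.83 to 3.95). Ly6c2 and Plac8 were 2.31-fold and 2.05-fold higher, with log2 ratios of 0.75 and 0.24 after the length correction. Ccr2, the receptor by which classical monocytes leave the marrow, had 1455 and 2089 CPM, and the matrix gene Fn1 2418 and 2956 CPM. Lyz2, lysozyme, had 36863 and 30057 CPM and was among the 10 most abundant genes of both libraries. Patrolling markers were mixed, with 8 higher and 3 lower of 19. The fractalkine receptor Cx3cr1 had 554 and 275 CPM, 2.02-fold lower (1.97 to 2.07), and Pou2f2, an octamer-binding factor, 191 and 80.1 CPM, 2.39-fold lower (2.28 to 2.5). Nr4a1, the nuclear receptor that patrolling monocytes need, had 360.3 and 229 CPM, a log2 ratio of -0.65. Cd36, a scavenger receptor, had 12.1 and 88.4 CPM, 7.33-fold higher (6.49 to 8.3), and Itgax, the integrin CD11c, 4.49 and 20.7 CPM, 4.6-fold higher (3.75 to 5.69). The measured colony-stimulating factor receptors lay within 2-fold. Csf1r had 957 and 850.0 CPM, Csf2rb 259.9 and 265 CPM, and Csf3r 169 and 89.9 CPM, a log2 ratio of -0.91. The ligand Csf1 was 11.9-fold higher (7.59 to 19.7), at 10.1 CPM in the mutant.

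Many genes of resident macrophages were higher. All 17 members at 10 CPM were at least 2-fold higher, but 6 of them reached 10 CPM in wild type and the others were compared only through the mutant library, and their median log2 ratio of 3.83 was 2.73 on TPM and 4.02 after the length correction. The other 9 listed genes stayed below 10 CPM in both libraries; among them Timd4 and Lyve1, markers of long-resident macrophages, had 1.03 and 2.67 CPM in the mutant, Marco had 1 count there, and Cd209f had none in either. C1qa and C1qc, chains of complement C1q, had 1.02 and 66.6 CPM, 65.5-fold higher (43.9 to 102), and 5.63 and 176 CPM, 31.2-fold higher (26.3 to 37.3), respectively. Cbr2, a carbonyl reductase of tissue macrophages, had 4.74 and 58.2 CPM, 12.3-fold higher (10.1 to 15). Gpnmb, a glycoprotein of lysosome-rich macrophages, had 1.14 and 16.8 CPM, 14.7-fold higher (10 to 22.5). Mrc1, the mannose receptor CD206, had 18.3 and 99.6 CPM, 5.43-fold higher (4.91 to 6.01), and Cd163, the haptoglobin-haemoglobin scavenger receptor, 6.99 and 22.7 CPM, 3.24-fold higher (2.74 to 3.86). Adgre1, which encodes the macrophage antigen F4/80, had 407 and 1205 CPM, 2.96-fold higher (2.9 to 3.03), Axl, a receptor for apoptotic cells, 32.5 and 103 CPM, 3.16-fold higher (2.92 to 3.42), and Trem2, a lipid-sensing receptor, 33.1 and 175 CPM, 5.29-fold higher (4.91 to 5.71). Against microglia, genes of this list differed in both directions. C1qb had 769 CPM in mutant monocytes against 6220.1 CPM in wild-type microglia, and Trem2 175 against 1096 CPM. Mrc1 and Pf4 were the reverse, with 5.38 and 0.984 CPM in wild-type microglia. So were Adgre1, with 1205 CPM in mutant monocytes against 498 CPM, and Apoe, with 4427 against 465 CPM. Of the alternative activation genes, 7 of 11 were at least 2-fold higher. Tgm2, a transglutaminase, had 11 and 117 CPM, 10.7-fold higher (9.4 to 12.1), while Il4ra and Stat6, receptor and effector of interleukin 4, had log2 ratios of 0.96 and -0.16 and the lectin Clec10a of -0.55. Outside the lists, Dab2, an endocytic adaptor of macrophages, had 0.212 and 183 CPM, 862-fold higher (369 to 2656). Saa3, a serum amyloid made by activated macrophages, had 3.52 and 1583 CPM, 450.3-fold higher (363 to 565). Cd38, an ectoenzyme that breaks down NAD, had 0.0424 and 70 CPM, 1653-fold higher (296 to 65311, on 1 wild-type count), and Pdpn, podoplanin, 0 counts and 29.8 CPM, at least 235-fold higher.

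**Figure D3:**
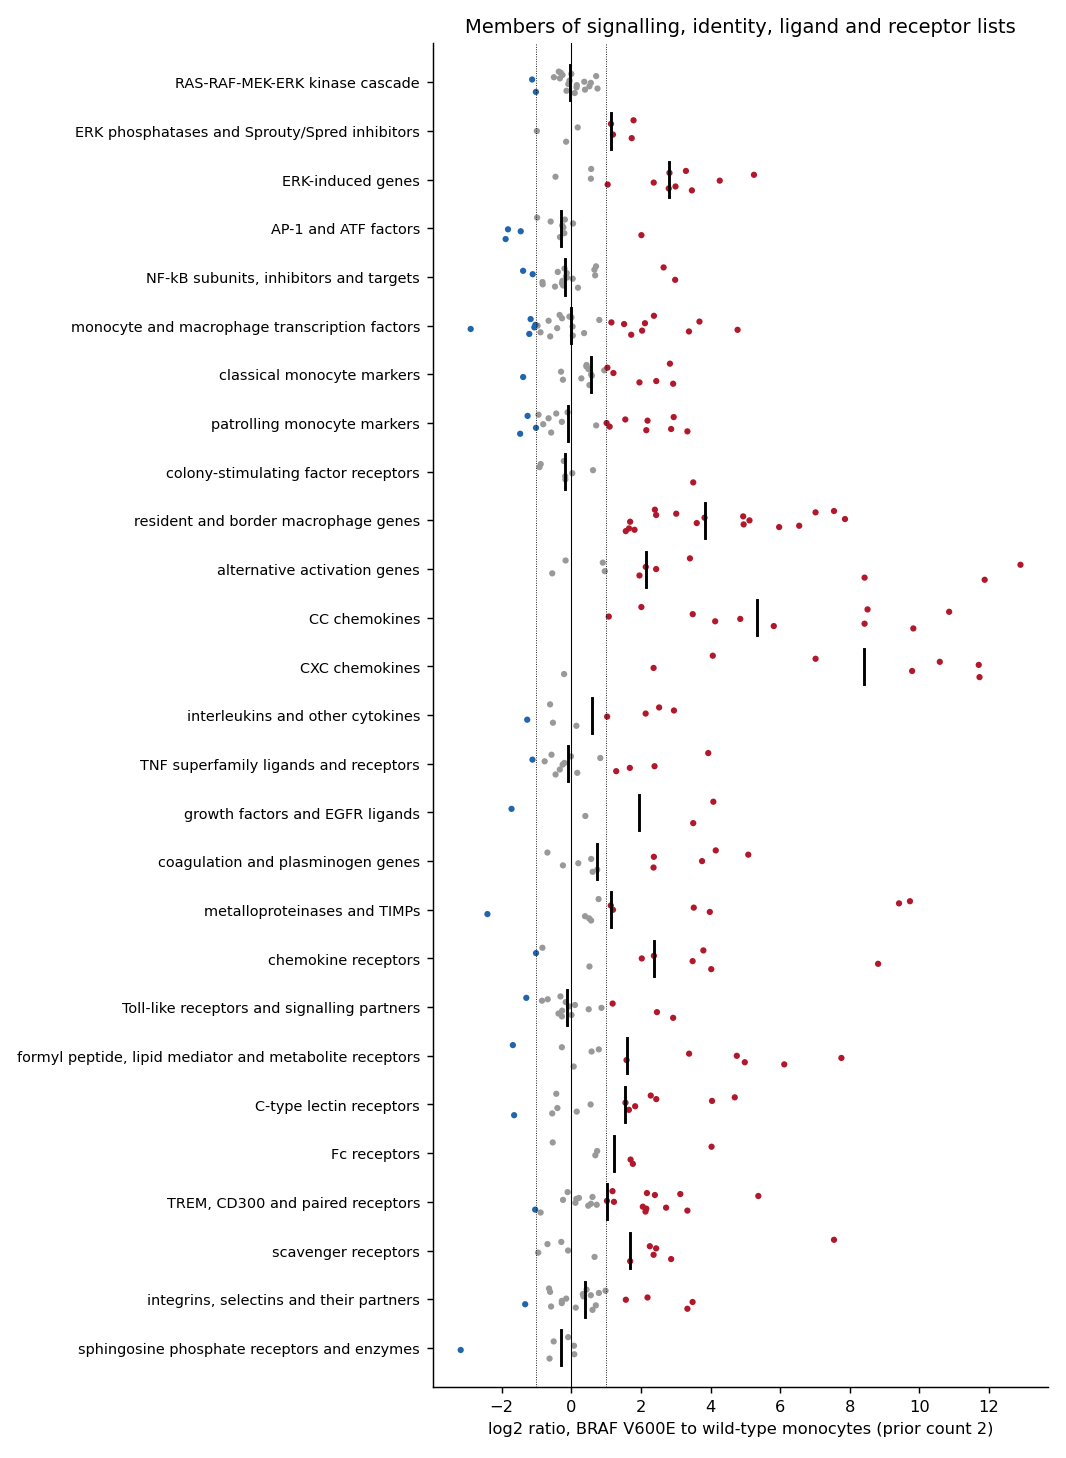
Log2 ratio of mutant to wild-type monocytes for every member at 10 CPM or more of the signalling, identity, ligand and receptor lists (points; red at least 2-fold higher, blue at least 2-fold lower, grey between), with the list median as a black bar. The kinase cascade is centred on 0 with 2 members, Braf among them, below -1, whereas all 10 CC chemokines and all 17 macrophage genes lie above 1.

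Chemokines had the largest list medians outside the markers of other blood cells. All 10 measured CC chemokines and 7 of 8 CXC chemokines were at least 2-fold higher, with median log2 ratios of 5.34 and 8.40. In wild type 6 of the 10 CC and 2 of the 8 CXC members reached 10 CPM. Of those 2 CXC members, 1 is Cxcl10, which was not higher. Ccl2, the main ligand of CCR2 (ENSMUSG00000035385.5, chromosome 11, 82035571 to 82037453, plus strand), had 29.6 and 1670.0 CPM, 56.5-fold higher (52.4 to 61). Ccl12, a second CCR2 ligand, had 0.635 and 618 CPM, 973-fold higher (590.1 to 1739.5), and Ccl8 0 counts and 16.7 CPM, at least 131-fold higher. The macrophage inflammatory proteins Ccl3 and Ccl4 had 13.7 and 242 CPM, 17.6-fold higher (15.8 to 19.7), and 24.3 and 705 CPM, 29-fold higher (26.7 to 31.5), respectively. Ccl6 and Ccl9, which mouse monocytes make without stimulation, were already high in wild type. Ccl6 had 1697 and 19055 CPM, 11.2-fold higher (11.1 to 11.3), and Ccl9 700.1 and 2827 CPM, 4.04-fold higher (3.97 to 4.1). Ccl24, an eotaxin that draws eosinophils, had 0.678 and 249 CPM, 367-fold higher (226 to 643). Ccl5 was 2.11-fold higher (2.03 to 2.19) with a log2 ratio of 0.33 after the length correction, and T and NK cells make it too. Per transcript length, the deposited TPM of the mutant library put Ccl6 at 8890.0, Ccl9 at 777, Ccl2 at 1229, Cxcl2 at 692 and Ccl7 at 1402. In wild type Ccl6 was at 1445 and Ccl9 at 351, and Ccl7 and Cxcl2 were at 1.29 and 0.344. Cxcl10, the interferon-induced chemokine, was the CXC member that did not reach 2-fold, with 16.5 and 14.3 CPM. Cxcl14 had 0 counts and 40.6 CPM, at least 319.5-fold higher, Cxcl16, also a scavenger receptor, 7.67 and 39.7 CPM, 5.17-fold higher (4.43 to 6.07), and the platelet chemokine Ppbp 2.63 and 44.7 CPM, 17-fold higher (13.2 to 22.3). Neutrophils and platelets make several of these, and their markers were also higher (sums of 2679.8 and 63129 CPM for neutrophils and 93.5 and 2550.1 CPM for platelets); their part was not tested.

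The promoters of the neutrophil chemokines carry the letters of an NF-kB site close to their start. The search read the 250 bases before each start in RefSeq (GRCm38.p6) on both strands for GGGA, any base and TTTCC. It occurred in 0.356% of all 32851 promoters, in 0.53% of the 6410 compared genes with a promoter, and in 9 of the 402 genes at least 4-fold higher (2.24%). Among the CXC chemokine and NF-kB lists it was found for Cxcl1, Cxcl2, Cxcl3, Nfkb2 and Nfkbia, 5 of 23 measured genes with a promoter. A match is a stretch of letters and does not show that a factor was bound. The sequences of the 4 genes that were at least 4-fold higher are shown from 5′ to 3′ on the strand of the gene, with the match in capitals; in Nfkbia it lies on the opposite strand.
Cxcl1, chr5:90891134-90891223, plus strand: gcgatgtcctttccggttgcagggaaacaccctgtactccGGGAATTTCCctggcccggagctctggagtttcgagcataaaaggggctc
Cxcl2, chr5:90903762-90903851, plus strand: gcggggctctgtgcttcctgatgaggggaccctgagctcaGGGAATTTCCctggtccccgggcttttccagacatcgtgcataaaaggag
Cxcl3, chr5:90785988-90786077, plus strand: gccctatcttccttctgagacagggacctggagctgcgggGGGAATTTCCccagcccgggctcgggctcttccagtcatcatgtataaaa
Nfkbia, chr12:55492648-55492716, minus strand: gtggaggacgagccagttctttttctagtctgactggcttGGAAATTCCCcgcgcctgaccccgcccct

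Beside these sequences, Cxcl1 had 1 count and 299 CPM, Cxcl2 0.466 and 1709.6 CPM, Cxcl3 0 counts and 70.5 CPM, and Nfkbia 215 and 1698 CPM. In Cxcl1 the match ran from 71 to 62 bases before the start, in Cxcl2 from 97 to 88, in Cxcl3 from 73 to 64 and in Nfkbia from 29 to 20. Nfkb2, which has the same letters, lay within 2-fold, with 65.2 and 54.6 CPM.

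Cytokines were few at these levels. Of 21 listed interleukins and other cytokines, 8 reached 10 CPM; Il6 and Il1a, central factors of the senescence-associated secretory phenotype, stayed at 3.99 and 5.74 CPM in the mutant and 0.127 and 0.551 CPM in wild type. Il1b had 97.3 and 428 CPM, 4.4-fold higher (4.21 to 4.6), and its antagonist Il1rn 7.92 and 61.5 CPM, 7.76-fold higher (6.69 to 9.06). Osm, oncostatin M, an IL-6 family cytokine, had 17.6 and 102 CPM, 5.76-fold higher (5.21 to 6.39). Il16, a chemoattractant of CD4 cells, was 2.41-fold lower (2.3 to 2.52), and Tgfb1 had a log2 ratio of -0.61. In the TNF family Tnfsf9, the ligand 4-1BBL, had 2.84 and 44.1 CPM, 15.5-fold higher (12.2 to 20.1), and Tnfrsf11a, the receptor RANK of osteoclast precursors, 19.7 and 103 CPM, 5.26-fold higher (4.77 to 5.8). Tnf itself was 3.24-fold higher (2.52 to 4.22) at 10 CPM in the mutant, and Tnfrsf21 2.17-fold lower (2.08 to 2.26). Pdgfb, a growth factor for pericytes, was 3.32-fold lower (2.67 to 4.15), while Vegfa was 18.2-fold higher at 10.8 CPM. Of the metalloproteinases and their inhibitors, 6 of 11 were at least 2-fold higher and 1 lower. The lower one, Adam19, had 53 and 9.94 CPM, 5.33-fold lower (4.75 to 6). Mmp19 had 4.96 and 57.3 CPM, 11.6-fold higher (9.59 to 14), and Adam9 30.9 and 70.9 CPM, 2.3-fold higher (2.12 to 2.5). Mmp8, a collagenase of neutrophil granules, was 2.2-fold higher (2.11 to 2.29), with a log2 ratio of 0.77 after the length correction. Adam10 and Adam17, the sheddases of many surface proteins, had log2 ratios of 0.57 and 0.39, both below 0 on TPM.

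Clotting genes were split, with 5 of 11 at least 2-fold higher and the list median of 0.75 at -0.12 on TPM. Thbs1, thrombospondin, which platelets also release, had 42.6 and 757 CPM, 17.8-fold higher (16.7 to 19). F7, coagulation factor VII, had 1.14 and 16 CPM, 14-fold higher (9.54 to 21.4), and Serpinb2, an inhibitor of plasminogen activators, 0.593 and 21.6 CPM, 36.5-fold higher (21.6 to 67). S100a10, which with annexin A2 binds plasminogen, had 801 and 4149 CPM, 5.18-fold higher (5.1 to 5.26). F10 had 83.3 and 139.8 CPM, F13a1 1376 and 1165 CPM and the anticoagulant receptor Thbd 48.9 and 30.4 CPM, all within 2-fold. F3, tissue factor, the starter of clotting, stayed below 10 CPM with 0.0847 and 0.238 CPM.

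Several receptors for chemoattractants and complement fragments were higher. Of the chemokine receptors, 6 of 9 were at least 2-fold higher, and 6 of the 9, higher or not, reached 10 CPM in wild type. Ccr1, a receptor for Ccl3, Ccl6 and Ccl9, had 17.8 and 290.1 CPM, 16.3-fold higher (14.8 to 18). Cmklr1, the receptor of chemerin, had 17.2 and 89.5 CPM, 5.19-fold higher (4.68 to 5.77), and Ccrl2, an atypical receptor for it, 16.1 and 65.5 CPM, 4.08-fold higher (3.66 to 4.56). Cxcr2, the neutrophil receptor for Cxcl1 and Cxcl2, was 14.2-fold higher (10.6 to 19.4), and Ccr3, the eosinophil receptor for Ccl24, had 20.6 CPM in the mutant and 0 counts in wild type; both are also on the lists of those cells. The formyl peptide receptor Fpr2 had 12.6 and 342 CPM, 27.1-fold higher (24.2 to 30.5), and Fpr1 0.424 and 102 CPM, 240.1-fold higher (130.4 to 501). C5ar1 and C3ar1, receptors of the anaphylatoxins, had 12.4 and 393 CPM, 31.8-fold higher (28.3 to 35.8), and 2.29 and 162 CPM, 70.8-fold higher (54.2 to 94.4), respectively. Gpr84, a receptor for medium-chain fatty acids, had 0.974 and 10.6 CPM, 10.9-fold higher (7.15 to 17.4). Ptgir, the prostacyclin receptor, was 3.2-fold lower (2.95 to 3.48). Ltb4r1, for leukotriene B4, had a log2 ratio of 0.58. The sphingosine phosphate receptor S1pr2 and the enzymes Sgpl1 and Sphk2 lay within 2-fold (-0.62, 0.08 and -0.09), so S1pr5 was the single member of that list past it.

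Pattern recognition was higher at the lipopolysaccharide receptor and lower at a nucleic acid sensor. Ly96 (MD-2), the co-receptor of Tlr4, had 74.4 and 409.9 CPM, 5.51-fold higher (5.24 to 5.79), and Tlr4 17.3 and 39.5 CPM, 2.28-fold higher (2.04 to 2.55). Tlr9, which senses DNA in endosomes, was 2.45-fold lower (2.17 to 2.78), and Tlr7 and Tlr8 had log2 ratios of -0.84 and -0.68. Tlr2, Myd88 and Irak4 lay within 2-fold, so 12 of 16 genes of the list did, against 77% of all compared genes. Several C-type lectins of the Clec4 genes were higher, but not all. Clec4a2 and Clec4b1 had log2 ratios of 1.84 and 1.56, while Clec4a3 and Clec4a1 lay within 2-fold, at 0.56 and -0.40. Clec4n (dectin-2) had 4.57 and 119.8 CPM, 26.2-fold higher (21.6 to 32), Clec4d 32.2 and 532 CPM, 16.5-fold higher (15.4 to 17.8), and Clec4e (mincle) 69.5 and 378 CPM, 5.43-fold higher (5.16 to 5.72). Clec5a, a DAP12-coupled lectin, had 15.8 and 77.1 CPM, 4.88-fold higher (4.38 to 5.45). Clec7a (dectin-1) had a log2 ratio of -0.43 and Clec12a of 0.16, the first of which stayed below 0 under each scaling. Fcgr4, the activating IgG receptor of non-classical monocytes, had 8.85 and 145 CPM, 16.4-fold higher (14.3 to 18.9), and Fcgr1 65.3 and 213 CPM, 3.26-fold higher (3.09 to 3.44). The shared chain Fcer1g was 3.41-fold higher, with a log2 ratio of 0.75 after the length correction, and the inhibitory Fcgr2b had a log2 ratio of 0.69, -0.18 on TPM. Of the TREM, CD300 and paired receptors, 12 of 23 were higher, with a median log2 ratio of 1.02 that was 0.16 on TPM over the same members. Trem1, an amplifier of inflammation in neutrophils and monocytes, had 3.26 and 137 CPM, 42-fold higher (33.6 to 53.3), Trem3 24.4 and 214 CPM, 8.78-fold higher (8.07 to 9.57), and Cd300lf, a receptor for phosphatidylserine, 22.8 and 151 CPM, 6.62-fold higher (6.05 to 7.24). The inhibitory Pirb had 464 and 504 CPM and Sirpa, the receptor of CD47, 547 and 464 CPM. Cd300lb was 2.05-fold lower (1.96 to 2.15). Neutrophils also express Fpr1, Fpr2, Trem1, Clec4d and Clec4e, whose ratios stood with the neutrophil marker sum of 2679.8 and 63129 CPM; their part was not tested.

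Of the adhesion molecules 15 of 20 lay within 2-fold, close to the 77% of all compared genes. Itgam, the integrin CD11b, had 149 and 440.2 CPM, 2.96-fold higher (2.86 to 3.07), and the tetraspanin Cd9 11.6 and 118 CPM, 10.1-fold higher (8.97 to 11.5). Itga6, a laminin-binding chain that platelets share, had 2.2 and 25.1 CPM, 11.4-fold higher (8.63 to 15.4). Itga4, the alpha chain of VLA-4 that binds VCAM-1 on endothelium, was lower, with 257 and 103 CPM, 2.51-fold lower (2.41 to 2.61). Its partner Itgb1 had a log2 ratio of 0.35, -0.52 on TPM, and Itgal, of LFA-1, of -0.27. Selplg, the selectin ligand PSGL-1, had 519 and 333 CPM. Msr1, the class A scavenger receptor (ENSMUSG00000025044.16, chromosome 8, 39581685 to 39642673, minus strand), had 221 and 1055 CPM, 4.78-fold higher (4.64 to 4.92), whereas Scarb1 and Lrp1 had log2 ratios of -0.68 and -0.09.

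Interferon genes split by family. The small membrane proteins Ifitm1, Ifitm2, Ifitm3 and Ifitm6 were all higher and the 4 measured IFIT genes and Mx1 all lower, within a list of which 7 were at least 2-fold higher and 5 lower of 31. Ifitm1 had 11.6 and 906 CPM, 77.8-fold higher (69.1 to 87.9), Ifitm2 916 and 4248 CPM, 4.64-fold higher (4.57 to 4.7), and Ifitm3 11336 and 31432 CPM, 2.77-fold higher (2.76 to 2.78). Ifitm3 and Ifitm6 had log2 ratios of 0.34 and 0.72 after the length correction. Ifit2 had 31.4 and 7.99 CPM, 3.93-fold lower (3.44 to 4.51), Ifit1 26.9 and 10.3 CPM, 2.61-fold lower (2.3 to 2.97), and Mx1 51.5 and 21.8 CPM, 2.36-fold lower (2.16 to 2.59). The sensors and factors of the pathway lay within 2-fold: Stat2 had a log2 ratio of -0.81 and Irf7 of -0.78. In presentation, B2m, the light chain of class I, had 2550.4 and 11866 CPM, 4.65-fold higher (4.61 to 4.69), while the heavy chains H2-K1 and H2-D1 had log2 ratios of -0.09 and -0.16. Class I genes are near-identical copies, so reads may be split between them. The class II genes H2-Aa and H2-Eb1 were 2.71-fold and 3.03-fold higher (0.83 and 0.91 as log2 ratios after the length correction), the invariant chain Cd74 had a log2 ratio of 0.19 that was -0.68 on TPM, and their master regulator Ciita of -0.58. The costimulator Cd80 had 3.05 and 17.9 CPM, 5.87-fold higher (4.6 to 7.59), and Cd86 36.5 and 79.2 CPM, 2.17-fold higher (2.01 to 2.34).

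Of the inflammasome genes 3 of 12 were at least 2-fold higher, and of the oxidase and oxidant genes 8 of 17. Il1r2, the decoy receptor that neutrophils and monocytes carry, had 1.78 and 97.6 CPM, 54.8-fold higher (40.5 to 76.2), and Pycard, the inflammasome adaptor ASC, 166 and 893 CPM, 5.37-fold higher (5.2 to 5.55). The sensors Nlrp3 and Aim2 and the proteases Casp1 and Casp4 did not reach 2-fold, with log2 ratios of -0.17, -0.38, -0.63 and -0.45. Of the oxidase subunits, Cyba had 1262 and 6511 CPM, 5.16-fold higher (5.1 to 5.22), but its partner Cybb had 1947 and 1249 CPM, a log2 ratio of -0.64. The higher genes of that list also include Slc7a11, Srxn1, Txnrd1 and Gpx1. Slc7a11, the cystine importer, had 1.19 and 19.1 CPM, 16.1-fold higher (11.1 to 24.5), Srxn1, sulfiredoxin, 1.86 and 18.4 CPM, 9.88-fold higher (7.28 to 13.7), and Txnrd1, thioredoxin reductase, 18.3 and 44 CPM, 2.41-fold higher (2.16 to 2.68). Gpx1, glutathione peroxidase, had 2116 and 13746 CPM, 6.49-fold higher (6.44 to 6.55). Sod1 had a log2 ratio of -0.62, and Nqo1 stayed below 10 CPM.

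Of the prostaglandin and leukotriene enzymes 6 of 12 were at least 2-fold higher and 1 lower. Ltc4s, leukotriene C4 synthase (ENSMUSG00000020377.15, chromosome 11, 50236461 to 50238616, minus strand), had 1.48 and 676 CPM, 456-fold higher (328 to 655). Alox5ap, the protein that 5-lipoxygenase needs, did not reach 2-fold, with 560.0 and 1117 CPM and a log2 ratio of 0.25 after the length correction and 0.13 on TPM. Alox5, the 5-lipoxygenase, had 14.1 and 90.1 CPM, 6.37-fold higher (5.69 to 7.15), and Alox15, found also in eosinophils, 0 counts and 18.1 CPM, at least 142-fold higher. Ptgs1, the constitutive cyclooxygenase, had 5.29 and 23.5 CPM, 4.44-fold higher (3.67 to 5.39), while Ptgs2, the inducible one, stayed below 10 CPM. Hpgd, which inactivates prostaglandins, had 161 and 40.1 CPM, 4.02-fold lower (3.79 to 4.27). Platelet, mast cell and eosinophil markers, of cells that make leukotriene C4, summed to 93.5 and 2550.1 CPM, 2.12 and 16.3 CPM and 5.51 and 376 CPM in the same libraries, and their part was not tested. Cathepsins of the lysosome were partly higher. Ctsd had 114 and 565 CPM, 4.98-fold higher (4.78 to 5.18), Lgmn, legumain, 63.8 and 254 CPM, 3.99-fold higher (3.78 to 4.22), and the inhibitor Cstb 323 and 2449 CPM, 7.57-fold higher (7.4 to 7.75). Ctsb, Ctss, Ctsa and Ctsh had log2 ratios of 0.40, 0.18, -0.20 and -0.28, of which those of Ctsb and Ctss were below 0 on TPM. In complement, Cfp (properdin) had 135 and 541 CPM, 4.02-fold higher (3.87 to 4.18), C4b 1.52 and 22.9 CPM, 15-fold higher (10.8 to 21.6), and Cfb 6.78 and 21.9 CPM, 3.24-fold higher (2.73 to 3.86), whereas C3 had 327 and 211 CPM. Among the S100 proteins S100a11 had 1227 and 4867 CPM, 3.97-fold higher (3.92 to 4.02), with a log2 ratio of 0.97 after the length correction. S100a4 and S100a6 had log2 ratios of 0.43 and 0.87, and these genes are very short.

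**Figure D4:**
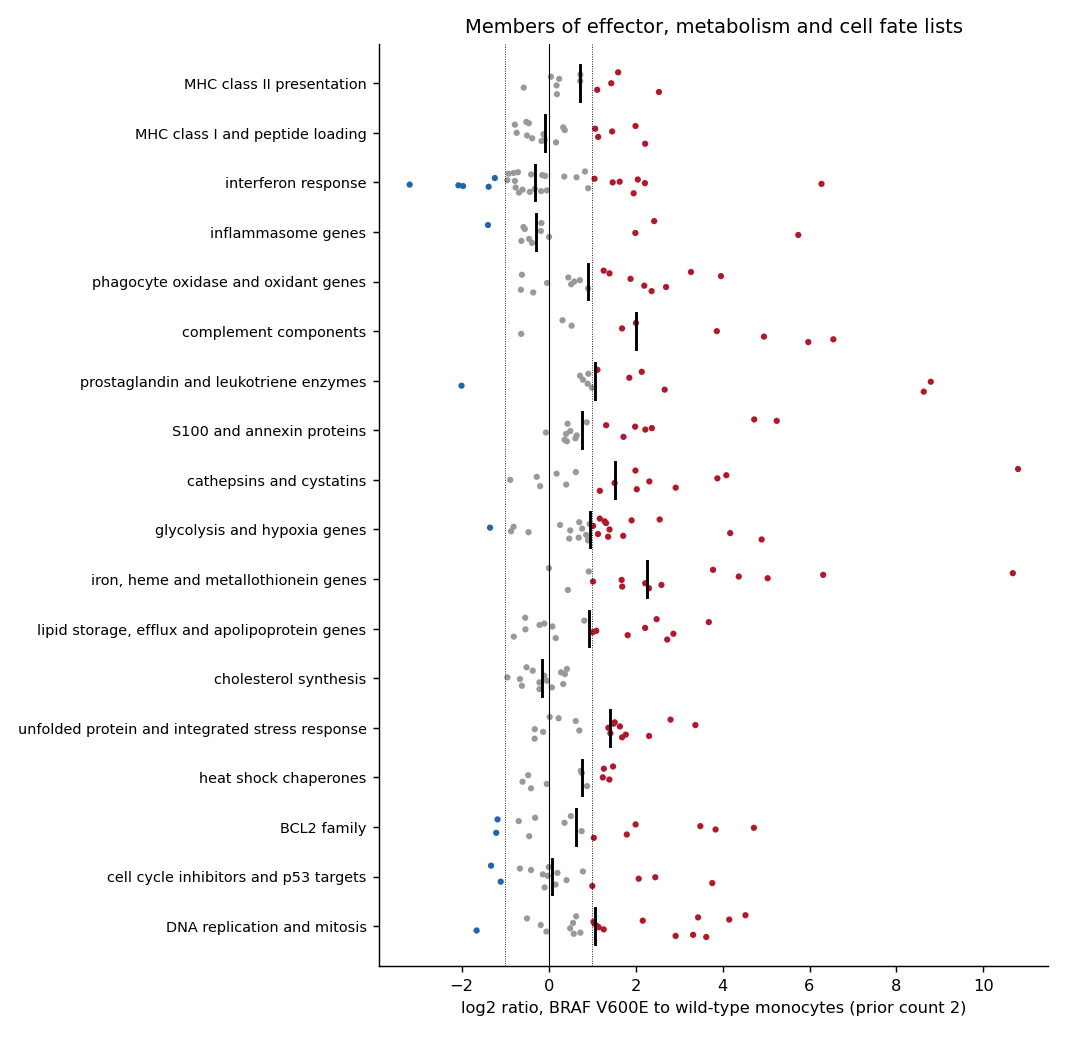
Log2 ratio of mutant to wild-type monocytes for every member at 10 CPM or more of the effector, metabolism and cell fate lists (points; red at least 2-fold higher, blue at least 2-fold lower, grey between), with the list median as a black bar. Iron and metallothionein genes lie mostly above 1, cholesterol synthesis genes all lie between -1 and 1, and the interferon list reaches from -3.20 to 6.28.

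Of the metabolic lists, metal and haem genes had the most members past 4-fold higher (8 of 14). Metallothioneins, which bind zinc and copper, led it. Mt1 (ENSMUSG00000031765.8, chromosome 8, 94179082 to 94180327, plus strand) had 73 and 5814 CPM, 79.6-fold higher (75.9 to 83.5), and its neighbour Mt2 0.169 and 352 CPM, 2078-fold higher (812 to 7629). Slc39a14, a zinc and iron importer, had 1.74 and 24.4 CPM, 14.1-fold higher (10.3 to 19.7). The ferritin chains Fth1 and Ftl1 had 1274 and 7685 CPM, 6.03-fold higher (5.96 to 6.11), and 2992 and 13941 CPM, 4.66-fold higher (4.62 to 4.7), respectively. Hmox1, haem oxygenase, had 27.6 and 88.3 CPM, 3.2-fold higher (2.94 to 3.49), and Blvrb, which acts after it, 51.2 and 253 CPM, 4.95-fold higher (4.66 to 5.26). Red blood cells also hold Blvrb and ferritin RNA, and erythroid markers summed to 219 and 10513 CPM; their part was not tested. Of the lipid storage, efflux and apolipoprotein genes 8 of 16 were at least 2-fold higher and the others within 2-fold, with a median log2 ratio of 0.92 that was 0.05 on TPM. Abca1, the cholesterol exporter, had 5.8 and 38.6 CPM, 6.66-fold higher (5.59 to 7.99), Pltp 23.7 and 133 CPM, 5.6-fold higher (5.13 to 6.12), Lpl, lipoprotein lipase, 123 and 574 CPM, 4.65-fold higher (4.48 to 4.84), and Apoe 1257 and 4427 CPM, 3.52-fold higher (3.48 to 3.57). Abcg1 did not follow, with a log2 ratio of 0.16, -0.70 on TPM. None of 14 synthesis genes reached 2-fold in either direction (median -0.16).

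Of the glycolysis and hypoxia genes 12 of 25 were at least 2-fold higher and 1 lower, with a median log2 ratio of 0.94 that was 0.07 on TPM. Slc2a1 and Slc2a3, glucose transporters, had 13.4 and 50.3 CPM, 3.76-fold higher (3.33 to 4.25), and 3.26 and 19.4 CPM, 5.94-fold higher (4.69 to 7.61), respectively. Gapdh had 249 and 816 CPM, 3.28-fold higher (3.19 to 3.37), and Ldha 189 and 499 CPM, 2.64-fold higher (2.55 to 2.73). Hk2, hexokinase, had 893 and 489.5 CPM with a log2 ratio of -0.87, and Pfkfb3, which activates glycolysis, was 2.56-fold lower (2.28 to 2.87). Hif1a had 54.4 and 119 CPM, 2.19-fold higher (2.06 to 2.34), and Hilpda, a target of it on lipid droplets, 2.12 and 39 CPM, 18.4-fold higher (13.9 to 25). For respiration and translation genes, many of them short, the direction depended on the scale. Of 38 nuclear genes of the respiratory chain 15 were 2-fold higher, with a median log2 ratio of 0.78 that was -0.09 on TPM and 0.17 after the length correction. The 85 ribosomal protein genes had medians of 0.72, -0.15 and -0.01 in the same order, and the 12 mitochondrial genes of 0.45, -0.42 and -0.41. Ndufb8 and Cox5a stayed above 1 after the correction, at 1.95 and 1.68.

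Chaperones of the endoplasmic reticulum were higher, while the stress response factors Xbp1, Atf4 and Atf6 lay within 2-fold. Of the unfolded protein and integrated stress response list, 10 of 17 were at least 2-fold higher, with a median log2 ratio of 1.42 (0.55 on TPM and 1.20 after the length correction). Chac1, a glutathione-degrading enzyme, and Asns, asparagine synthetase, both known targets of ATF4, stayed below the 10 CPM minimum but were higher in the mutant. Chac1 had 0 wild-type counts and 0.926 CPM in the mutant. Asns had 0.296 and 3.7 CPM, 12.5-fold higher (5.9 to 31.6). Sdf2l1, a cofactor of the chaperone BiP, had 41.1 and 287 CPM, 6.98-fold higher (6.54 to 7.47), and Creld2, a secreted disulfide isomerase, 19.4 and 96.5 CPM, 4.96-fold higher (4.5 to 5.48). Hspa5, which is BiP itself, had 264 and 821 CPM, 3.11-fold higher (3.03 to 3.2), and Calr, calreticulin, 102 and 328 CPM, 3.22-fold higher (3.08 to 3.37). Hsp90b1 and Pdia6 had 283 and 732 CPM, 2.59-fold higher (2.52 to 2.66), and 110.0 and 315 CPM, 2.87-fold higher (2.75 to 2.99), respectively. Xbp1, Atf4 and Atf6 had log2 ratios of 0.02, -0.32 and -0.20, and Herpud1 of -0.32. Gene counts do not show the splicing of Xbp1 that activates it. Ddit3, the death-associated factor CHOP, had 6.14 and 21.1 CPM, 3.44-fold higher (2.88 to 4.13). The letters of the endoplasmic reticulum stress element, CCAAT, then 9 bases of any kind, then CCACG, were searched on both strands of the same windows. They were found in 0.113% of all promoters, in 0.156% of the 6410 compared genes with a promoter, and in 1 of the 402 genes at least 4-fold higher (0.249%). In this list they were found in 6 of 16 measured genes with a promoter, shown here with the match in capitals. Among these 6, Dnajc3 was the one that did not reach 2-fold, with 96 and 156 CPM, and Sdf2l1 did not have these letters in its window.
Hspa5, chr2:34772013-34772055, plus strand: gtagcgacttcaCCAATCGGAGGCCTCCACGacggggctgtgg
Creld2, chr15:88819508-88819550, plus strand: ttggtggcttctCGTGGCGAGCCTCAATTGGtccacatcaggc
Calr, chr8:84847063-84847105, minus strand: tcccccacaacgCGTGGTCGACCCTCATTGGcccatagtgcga
Hsp90b1, chr10:86705626-86705668, minus strand: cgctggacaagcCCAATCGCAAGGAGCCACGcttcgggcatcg
Pdia6, chr12:17266479-17266521, plus strand: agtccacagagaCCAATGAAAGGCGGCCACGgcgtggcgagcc
Dnajc3, chr14:118937815-118937857, plus strand: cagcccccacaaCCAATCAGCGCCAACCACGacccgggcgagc

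Of the heat shock chaperones, 4 of 11 were at least 2-fold higher, and the list median of 0.76 was -0.11 on TPM. Hsp90aa1 and Hsp90ab1 were 2.63-fold and 2.37-fold higher (the latter with a log2 ratio of 0.91 after the length correction), while the stress-induced Hspa1a had a log2 ratio of -0.47 and Dnajb1 of -0.04.

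Of the BCL2 family 6 of 14 were higher and 2 lower, with a list median of 0.63 that was -0.23 on TPM. The A1 genes Bcl2a1b, Bcl2a1a and Bcl2a1d, inhibitors of apoptosis that are close copies and may share reads, had 6.06 and 161 CPM, 26.6-fold higher (22.5 to 31.6), 4.87 and 70.3 CPM, 14.4-fold higher (12 to 17.5), and 16.3 and 183 CPM, 11.2-fold higher (10.1 to 12.5), respectively. Bcl2l1, which encodes BCL-XL, had 12.1 and 48.4 CPM, 4.01-fold higher (3.54 to 4.56). Mcl1, on which neutrophils and monocytes depend, had 917 and 738 CPM. Bbc3 (PUMA) was 2.32-fold lower (1.97 to 2.73) and Bmf 2.27-fold lower (2.06 to 2.5), and Bax, an executioner, was 3.47-fold higher. Among cell cycle inhibitors Cdkn1b, the quiescence inhibitor p27, was 2.15-fold lower (2.02 to 2.29), opposite to Cdkn1a (13.6-fold higher). The p53 gene Trp53 and its target Mdm2 had log2 ratios of 0.00 and 0.20, Trp53inp1 was 2.52-fold lower (2.19 to 2.9), and Lmnb1, lamin B1, which is lost in senescent cells, had 13.8 and 12.6 CPM. Gadd45b and Gadd45g, growth arrest genes, were 4.23-fold and 5.52-fold higher. Cdkn2a, which encodes the senescence marker p16, had 0 and 15 counts, 0.397 CPM in the mutant, and its neighbour Cdkn2b, p15, 0 and 119 counts; both are below 10 CPM. Of the genes of dividing cells 12 of 21 were at least 2-fold higher. Only 9 of the 21, higher or not, reached 10 CPM in wild type. The median log2 ratio was 1.06, and 0.18 on TPM over the same members. Birc5, survivin, had 1.44 and 18.3 CPM, 12.7-fold higher (8.99 to 18.5), Ccnb2 1.95 and 19.9 CPM, 10.2-fold higher (7.58 to 14.1), and Rrm2, of ribonucleotide reductase, 4.4 and 19.9 CPM, 4.52-fold higher (3.67 to 5.6). Mki67, the proliferation antigen, was 2.09-fold higher (1.83 to 2.38), while Mcm7, Tk1 and Hmgb2 had log2 ratios of -0.18, -0.50 and -0.05 and Kif23 was 3.18-fold lower (2.66 to 3.81). Granule genes of dividing granulocyte precursors stood at sums of 43.3 and 293 CPM beside them, and their part was not tested.

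With the main scaling, genes lower in the mutant were fewer, but this depended on the scale. With library size alone 662 genes were at least 2-fold higher and 2041 lower, and on TPM at a minimum of 10 TPM 453 and 1873. At 4-fold the counts were 242 higher and 184 lower with library size alone, and 178 and 237 on TPM. No gene at 10 CPM in wild type was at 0 counts in the mutant, which is also the deeper library. Tmcc1, a membrane protein of the endoplasmic reticulum (ENSMUSG00000030126.17, chromosome 6, 116018611 to 116193486, minus strand), had 641 and 114 CPM, 5.63-fold lower (5.44 to 5.82). Rbks, ribokinase, had 552 and 117 CPM, 4.71-fold lower (4.55 to 4.87). Grk3, a kinase that switches off G protein-coupled receptors, had 119 and 22.2 CPM, 5.35-fold lower (4.95 to 5.78), and Racgap1, a GTPase regulator of cell division, 74.7 and 16.6 CPM, 4.5-fold lower (4.11 to 4.94). Gpr18, a lipid receptor, had 47.4 and 9.84 CPM, 4.81-fold lower (4.28 to 5.43), and Clec2i, a ligand of NK receptors, 43.2 and 8.65 CPM, 4.99-fold lower (4.4 to 5.67). Lpin1, a phosphatidate phosphatase, was 4.9-fold lower (4.29 to 5.61), and Ak3, an adenylate kinase of mitochondria, 4.35-fold lower (3.87 to 4.88). Nr1d2, which encodes the nuclear receptor REV-ERB beta, had 20.4 and 3.52 CPM, 5.8-fold lower (4.78 to 7.09), and Tef 16 and 3.54 CPM, 4.51-fold lower (3.69 to 5.53). Of these 10 genes none is on a list of other blood cells. After the length correction Racgap1 and Tef had log2 ratios of -1.95 and -1.92, just inside 4-fold, and the others kept 4-fold.

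Set against the other cell types, which share no library with the monocytes, part of the difference was common. Of the 534 genes at least 4-fold higher in mutant monocytes, 58 were also 4-fold higher in mutant microglia (10.9% of the monocyte genes, 18.4% of the 315 compared there, and 23.3% of the 249 microglial ones) and 4 were 4-fold lower there. In all genes compared in microglia, 2.83% were 4-fold higher. In intravascular macrophages 112 were shared (21% of the monocyte genes, 28.3% of the 396 compared there, and 7.09% of the other list, with 16.5% of all genes compared there called) and 30 were opposite. T and NK cell markers summed to 4984 and 4107 CPM in the wild-type intravascular macrophage library, and their part in that count was not tested. The share of all compared genes that was 4-fold lower in either cell type was not computed. The counts of opposite genes therefore cannot be read as many or few. A set of 17 genes was at least 4-fold higher in all 3 cell types: Ang, C5ar1, Ccl12, Ccl7, Ccl8, Ccr1, Cd14, Cd300lf, Cxcl2, Egr2, Fcgr4, Gpr84, Ms4a7, Msr1, Mt1, Scimp and Spp1. They include 4 chemokines and osteopontin, several receptors of myeloid cells, and none of the neutrophil, eosinophil, erythroid or platelet markers. Ms4a7, a membrane protein of macrophages, had 9.32 and 75.6 CPM in monocytes, 0.109 and 43.4 CPM in the intravascular cells and 1.29 and 18.6 CPM in microglia. C5ar1 had 12.4 and 393 CPM, 35.4 and 281 CPM, and 145 and 617 CPM in the same order. Mt1 had 20.8 and 123 CPM in intravascular macrophages and 55.6 and 565 CPM in microglia. Other monocyte differences were not matched there: Ltc4s had 58.8 and 79 CPM in intravascular macrophages, Arg1 5.3 and 11 CPM, and Cdkn1a 112 and 76.3 CPM. Whether the genotype difference itself differs between cell types was not tested, since there is 1 library a group.

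**Figure D5:**
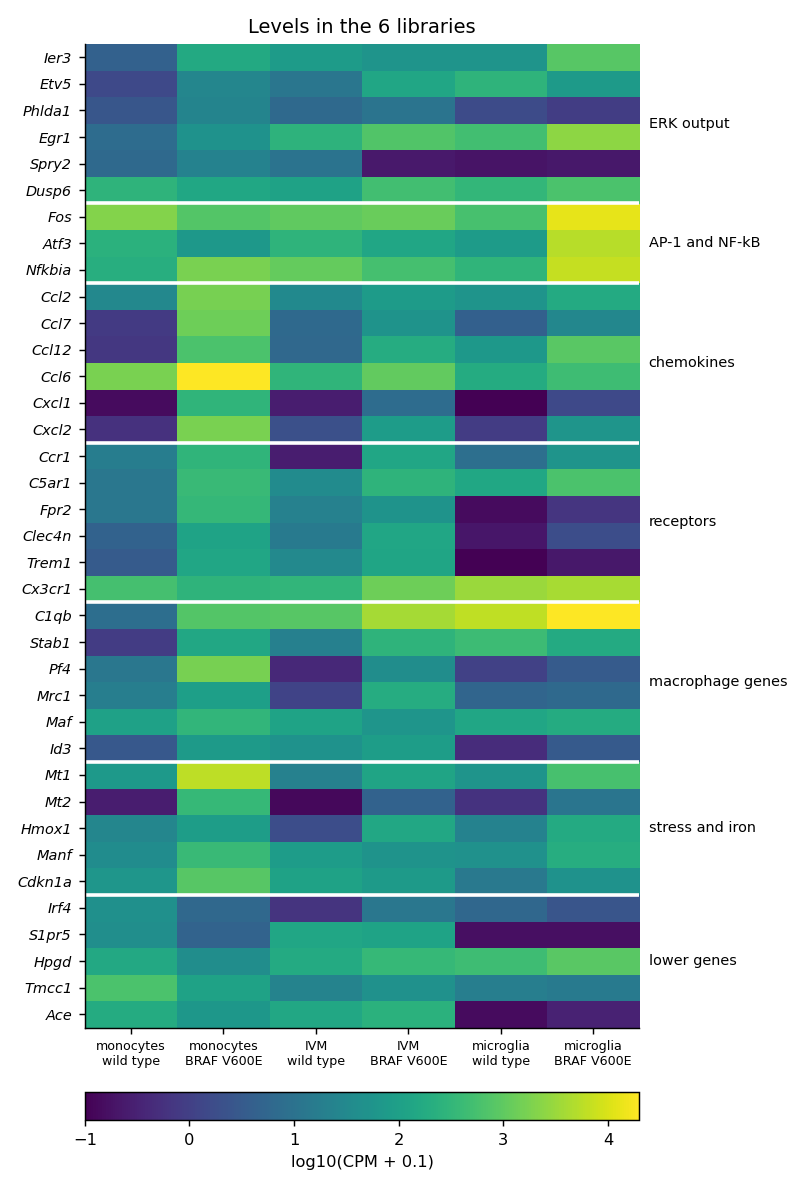
Colour gives log10(CPM + 0.1) of named genes (rows, by role) in the 6 libraries (columns; IVM, intravascular macrophages). The chemokine, metallothionein and receptor rows other than Cx3cr1 are brighter in mutant than in wild-type monocytes, Fos and Atf3 are brightest in mutant microglia, and Irf4, S1pr5 and Tmcc1 are darker in mutant than in wild-type monocytes.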

How the data were processed

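The deposited table of raw counts per gene was used; the authors also deposited TPM, which by their values are the same counts per gene length at a common sum. The submitters' processing notes name bcl2fastq 2.20, Trimmomatic 0.37, STAR 2.5.2b, Subread 1.5.2 and build mm10; annotation and strand setting: not given in the sources used here. Of 49315 lines, 176 without a name and 26 with a date for a symbol (up to 0.0996% of a monocyte library's counts) were left out and 94 repeated symbols summed, leaving 49016 genes. Counts were scaled with edgeR 4.0.16 (TMM, 6 libraries, R 4.3.3). Log2 ratios used a prior count of 2. Fold intervals are exact conditional binomial intervals at 95% and cover counting error only, as PCR copies of one molecule count separately. With 0 counts, the fold is a bound against 3 counts per library; with 1 to 3 counts the ratio is given. The ratio and size rule were tested on simulated data. Gene lengths came from the ratio of count to TPM and matched the exon length of GENCODE M21 (GRCm38) within 10% for 88.6% of genes; M21 gave coordinates and identifiers. The length correction is a loess fit (span 0.5) on log2 length and level. Members, lists and motifs were chosen with earlier results of these data known, the motifs after these values were seen. Named genes are list members at 10 CPM and 2-fold (up to 6 a direction), members near a ratio of 1, and the 30 largest ratios a direction; further names were chosen after their values were seen. Alternatives were library size, DESeq2 1.42.0 size factors, TMM of the monocyte libraries, priors 0.5 and 10, TPM (pseudocount 0.1), length correction, minimum 1 or 50 CPM, and leaving out blood cell markers or repeated symbols.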

Additional observations from a re-analysis of the deposited data

Results flagged for a closer look

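Some named genes were at least 4-fold different in monocytes and at least 4-fold different in the opposite direction in another cell type, as log2 ratios, mutant over wild type. The difference between cell types was not tested, as each group is 1 library. Against intravascular macrophages these were Csf1 (3.50 in monocytes, -2.76 there), Gadd45b (2.07 in monocytes, -2.48 there), Irf4 (-2.89 in monocytes, 4.45 there), Lpin1 (-2.29 in monocytes, 3.80 there), S100a10 (2.37 in monocytes, -2.69 there). T and NK cell markers summed to 4984 and 4107 CPM in the wild-type and to 15.2 and 29.4 CPM in the mutant library of those cells. Against microglia they were Rbks (-2.24 in monocytes, 2.12 there).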

How the results depend on the processing

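Leaving out a library was not possible with 1 a side. No paired analysis was possible because the result comes from no test and a group has 1 library. Counts of genes at least 4-fold higher, 4-fold lower, 2-fold higher and 2-fold lower were 534, 51, 1395 and 530. They were 242, 184, 662 and 2041 with library size alone and 178, 237, 453 and 1873 on TPM at a minimum of 10 TPM, which changes both the scale and the genes counted. A minimum of 1 CPM gave 1246, 464, 2721 and 1563 and of 50 CPM 312, 14, 801 and 171, with more or fewer genes compared. Under the other alternatives each count stayed within 1.5 times. With TPM and its minimum of 10 TPM together, list medians past 1 changed sign for ERK phosphatases and Sprouty genes (-0.68), ERK-induced genes (-0.30), TREM and CD300 receptors (-0.14) and DNA replication and mitosis (-0.24), and for the phosphatase list at 50 CPM (-0.15), where fewer members are measured. On TPM over the members compared in the main analysis they were 0.27, 1.90, 0.16 and 0.18. Of 218 named genes past 2-fold, 0 changed sign on TPM, which the near-constant shift largely fixes in advance. On TPM 41 of them dropped below 2-fold, and 13 of 218 dropped below it after the length correction. In deciles by GENCODE exon length, 44.2% of the shortest and 4.82% of the longest genes were 2-fold higher. A gene with 3 counts stands at 0.127 CPM in the wild-type and 0.0793 CPM in the mutant library, the depth limit of an undetected gene.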
